A study of Mus musculus with 10 samples.

Results

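Rods answer light through a short chain of proteins, and 9 genes of that chain are described here: *Gnat1*, *Gnb1* and *Gngt1* (the G protein transducin), *Pde6a*, *Pde6b* and *Pde6g* (the phosphodiesterase PDE6), *Cnga1* and *Cngb1* (the cation channel opened by cGMP) and *Sag* (rod arrestin). Their rows were found by gene symbol. The RNA-seq table lists 53974 genes and holds all 9, and all 9 were among the 17555 genes that passed a filter on low values (3 or more of the 6 libraries with a TPM of 1 or above). TPM is a transcript level per unit of length, scaled to almost the same total in each library, so it can be compared between genes. The study deleted *Arid1a*, which encodes a DNA-binding part of the SWI/SNF complex that moves nucleosomes, and asked how gene expression and open chromatin differ in retinal cells after optic nerve crush (ONC).

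The mice were C57BL/6 and 8 to 10 weeks old. All carried *Arid1a* with both alleles floxed (Arid1a fl/fl), and received an adeno-associated virus in the vitreous 2 weeks before ONC. AAV2-GFP left the floxed alleles in place (WT), while AAV2-Cre was given to delete them (cKO, Arid1a del/del). The virus used a CMV promoter, which is not limited to a cell type. Retinas were taken 3 days after ONC and dissociated, and DAPI-negative cells that bound an antibody to Thy1.2 were sorted. Each sample pooled 4 to 5 retinas. RNA-seq covered 3 WT and 3 cKO libraries, and ATAC-seq, which cuts and sequences open chromatin, covered 2 WT and 2 cKO libraries. All groups were crushed, so no value here is from an uninjured retina.

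In a rod, light-activated opsin loads GTP onto the transducin alpha subunit, which then leaves its beta and gamma partners and lifts the inhibitory gamma subunit off PDE6. PDE6 breaks down cGMP, the cGMP-gated channels close and the cell hyperpolarizes. Arrestin binds the phosphorylated opsin and ends its signal, while kinases, GTPase accelerators and calcium-binding proteins return the cascade to its dark state. Cones use a parallel set of genes for the same steps. Retinal ganglion cells (RGCs), whose axons form the optic nerve, do not run this cascade. Of the 9 genes, *Gnb1* is used in many cell types, and the others are known above all from photoreceptors.

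The labels name the sorted cells as RGCs, and the marker genes did not bear this out. *Pou4f2*, a defining RGC transcription factor, was listed at 0 TPM in 5 of 6 libraries and at 0.14 in the other, and *Rbpms*, an RGC marker, lay between 1.82 and 6.43 TPM. The 12 RGC markers summed to between 87.2 and 126 TPM in WT and between 143 and 178 in cKO libraries, and *Thy1*, the gene of the antigen sorted on, made up between 51.9 and 129 TPM of these sums. Against this, 7 rod markers that are not among the 9 genes summed to between 1493 and 1842 TPM in WT and between 2556 and 4166 in cKO libraries. *Arid1a* itself lay between 11.7 and 18.8 TPM in the libraries labelled WT and between 18.8 and 27.9 in those labelled cKO (log2 fold change 0.66, adjusted p = 0.274 from limma). The targeted RNA was thus not lower where the label says it was deleted. TPM per gene counts all transcripts of the gene together, so the deletion itself was not measured by it. Every direction below rests on the labels: WT and cKO mean the library labelled so. Sequencing depth was unknown, because TPM keeps no read number.

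All 9 rod genes were higher in cKO than in WT libraries, by 2.25-fold (*Cngb1*) to 3.46-fold (*Pde6b*) between the group means. In each of the 9, every cKO library lay above every WT library, a separation that 18.7% of all genes tested showed, with 7.18% separated the other way. After median-of-ratios scaling 8 of the 9 still separated, as did 12.5% of all genes upward, and *Cnga1* overlapped, with WT replicate 1 (26.2 on the scaled TPM) just above cKO replicate 3 (25.4). The fold changes on the log2(TPM + 1) scale ran from 1.13 to 1.70, with a median of 1.44, beside a median of 0.16 for all genes tested, of which 61.1% had a value above 0. A fold change at least as large as the smallest of the 9 was found in 4.61% of genes. By limma, 0 of the 9 were called at an adjusted p of 0.05 (Benjamini-Hochberg over 17555 genes), with adjusted p between 0.124 and 0.174. That threshold passed 0.0057% of all genes in the upward direction, 1 gene in all. At an unadjusted p under 0.05 all 9 were higher, as were 11.9% of all genes tested, while 6.45% were lower. The exact permutation test gave p = 0.1 for each of the 9, which is its smallest p at this sample size. Nothing in the labels says that the pools came from separate litters or days, so these p-values measure the spread between the libraries sequenced.

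The rod genes took a larger share of the cKO libraries. The 9 together made up 0.793%, 0.626% and 0.956% of all TPM in WT replicates 1, 2 and 3, and 1.47%, 2.61% and 2.64% in cKO replicates 1, 2 and 3. The lowest cKO library stood well above the highest WT library, and cKO replicate 1 stood nearest to WT. In every sentence that follows, 3 values in a row are replicates 1, 2 and 3 in that order. TPM is a share of an almost fixed total, so less RNA from other cells would also raise these values. In sorted pools, this, a larger number of rods and more of each RNA per rod cannot be told apart.

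**Figure D1:**
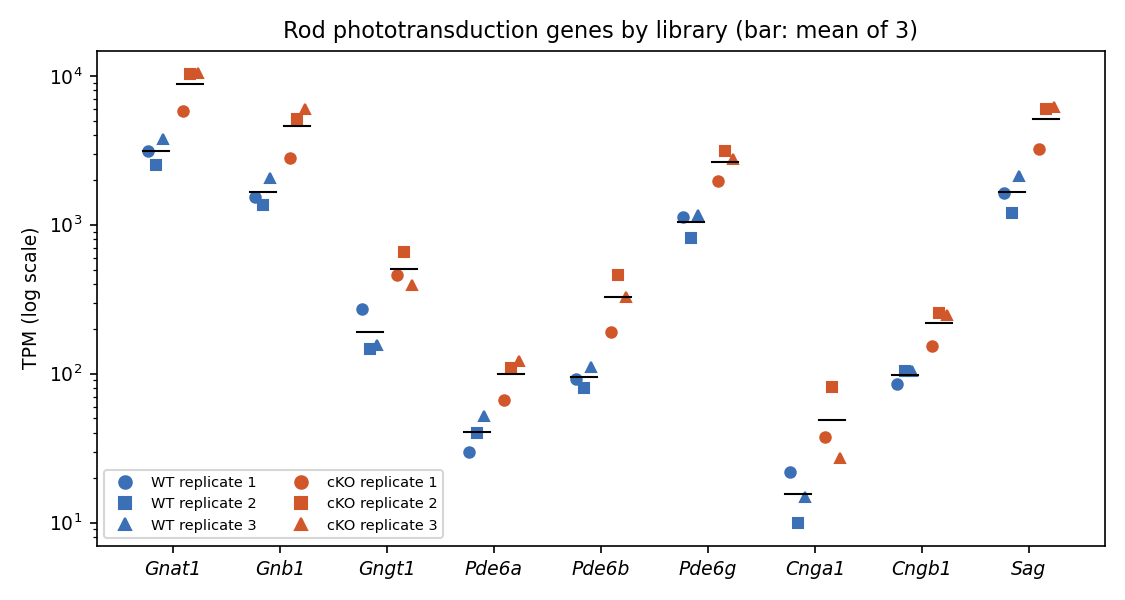
TPM of each rod gene (log axis) in the 3 WT libraries (blue) and the 3 cKO libraries (orange), with the mean of each group as a bar and the replicate number as the marker shape. In all 9 genes the 3 orange points lie above the 3 blue ones, and cKO replicate 1 is the lowest orange point except in *Gngt1* and *Cnga1*, where it is replicate 3.

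Transducin carries the signal from opsin to PDE6. Its alpha subunit *Gnat1*, the part that binds GTP and acts on PDE6, had the highest TPM of the 9 in every library. It stood at 3122, 2501 and 3772 TPM in WT and at 5815, 10205 and 10396 in cKO libraries. The groups did not overlap, and cKO replicates 2 and 3 lay close together and far above replicate 1. The means were 3132 ± 635 (SD, n = 3) and 8806 ± 2591 TPM (SD, n = 3), a log2 fold change of 1.46 (SE 0.33, adjusted p = 0.125 from limma). By rank among all genes of a library, *Gnat1* was at place 27, 32 and 23 in WT and at place 10, 3 and 2 in cKO libraries, so that in cKO replicate 3 a single gene had more TPM.

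The beta subunit *Gnb1*, which with the gamma subunit holds inactive transducin at the membrane, stood at 1528, 1363 and 2054 TPM in WT and at 2799.6, 5124 and 5969 in cKO libraries. The group means were 1649 ± 361 and 4631 ± 1641 TPM (SD, n = 3 each), and the log2 fold change was 1.44 (SE 0.35, adjusted p = 0.134 from limma). Its pseudogenes *Gnb1-ps2* and *Gnb1-ps3* were listed at 0 TPM in every library. The rod gamma subunit *Gngt1* was far lower per length, at 272, 147 and 157 TPM in WT and 459, 660.0 and 395 in cKO libraries. WT replicate 1 was the highest WT library for *Gngt1*, unlike for *Gnat1* and *Gnb1*, where it was replicate 3. Its means were 192 ± 69.4 and 505 ± 138 TPM (SD, n = 3 each), with a log2 fold change of 1.41 (SE 0.32, adjusted p = 0.124 from limma).

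Rod PDE6 is an enzyme of 2 catalytic subunits, alpha and beta, held in check by the small gamma subunit. The beta subunit *Pde6b* had the largest fold change of the 9. It stood at 92.3, 79.6 and 111 TPM in WT and at 191, 461 and 329 in cKO libraries, and the highest of the 6 was cKO replicate 2. The means were 94.4 ± 16.0 and 327 ± 135 TPM (SD, n = 3 each), a log2 fold change of 1.70 (SE 0.34, adjusted p = 0.124 from limma). The alpha subunit *Pde6a* stood at 29.8, 39.8 and 52.0 TPM in WT and at 66.1, 109 and 122 in cKO libraries. WT replicate 3 and cKO replicate 1 were the nearest pair across the groups. The means were 40.5 ± 11.2 and 98.9 ± 29.0 TPM (SD, n = 3 each), with a log2 fold change of 1.26 (SE 0.32, adjusted p = 0.139 from limma). The inhibitory subunit *Pde6g* was the most abundant of the 3, at 1129, 816 and 1160.0 TPM in WT and at 1967, 3145 and 2746 in cKO libraries. Its means were 1035 ± 190.2 and 2619 ± 599 TPM (SD, n = 3 each), and its log2 fold change was 1.33 (SE 0.28, adjusted p = 0.124 from limma). In every library *Pde6g* exceeded *Pde6b* and *Pde6b* exceeded *Pde6a*.

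The rod channel passes sodium and calcium while cGMP is bound, and is built from the pore subunit *Cnga1* and the modulatory subunit *Cngb1*. *Cnga1* was the lowest of the 9 genes and the most scattered. It stood at 21.8, 9.91 and 14.9 TPM in WT and at 37.7, 82.0 and 27.0 in cKO libraries. The groups did not overlap, but WT replicate 1 and cKO replicate 3 lay close to each other, and cKO replicate 2 stood apart from the other cKO libraries. The means were 15.5 ± 5.96 and 48.9 ± 29.1 TPM (SD, n = 3 each), with a log2 fold change of 1.50 (SE 0.46, adjusted p = 0.174 from limma), the largest adjusted p of the 9. *Cngb1* stood at 84.6, 104 and 104 TPM in WT and at 153, 257 and 248 in cKO libraries. Its means were 97.7 ± 11.3 and 219.6 ± 57.5 TPM (SD, n = 3 each), and its log2 fold change of 1.13 (SE 0.26, adjusted p = 0.125 from limma) was the smallest of the 9. The gene also encodes the soluble GARP2 protein, and the values per gene do not separate its transcripts.

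*Sag*, which encodes the arrestin that quenches rod opsin, stood at 1628, 1193 and 2124 TPM in WT and at 3203, 5944 and 6163 in cKO libraries. WT replicate 2 was the lowest library, and cKO replicates 2 and 3 were alike. The means were 1648 ± 466 and 5103 ± 1649 TPM (SD, n = 3 each), with a log2 fold change of 1.61 (SE 0.36, adjusted p = 0.124 from limma).

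The order of the levels was much the same in both groups. In WT libraries *Gnat1* was followed by *Gnb1*, *Sag*, *Pde6g*, *Gngt1*, *Cngb1*, *Pde6b*, *Pde6a* and *Cnga1*. Of the 8 neighbouring pairs in that order, *Gnb1* with *Sag* and *Cngb1* with *Pde6b* had overlapping values, and neither pair kept its order in all 3 libraries. In cKO libraries *Sag* stood above *Gnb1*, and *Pde6b* above *Cngb1*, in 3 of 3 libraries, and the other genes kept their places. The spread in cKO was wider: only *Pde6g* with *Gngt1* and *Cngb1* with *Pde6a* had ranges that did not overlap, although each of the 8 pairs kept its order within every cKO library.

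Taking WT and cKO libraries of the same number as a pair, the folds of the 9 genes lay between 1.69 and 2.22 in pair 1, between 2.47 and 8.27 in pair 2, and between 1.81 and 2.95 in pair 3. Pair 2 had the largest fold for all 9 genes, and its extreme was *Cnga1*, the gene with the lowest level. WT replicate 2 had the lowest share of rod TPM among WT libraries, and cKO replicate 2 one of the higher shares among cKO libraries. With the replicate number as a block the adjusted p of the 9 lay between 0.0735 (*Pde6a*) and 0.164 (*Cnga1*), still above the threshold. With any 1 library left out, the log2 fold changes of the 9 stayed between 1.00 (*Cngb1*) and 2.05 (*Pde6b*). *Cnga1* moved the most, between 1.06 and 1.84, and *Pde6g* between 1.17 and 1.52.

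Ratios between genes of 1 library do not depend on how that library is scaled, and they describe the proportions between parts of the cascade. Ratios are given of TPM, and their differences on the log2 scale of TPM + 1. *Gnat1* to *Gnb1* was 2.04, 1.83 and 1.84 in WT and 2.08, 1.99 and 1.74 in cKO libraries, a difference of 0.02 (exact permutation test, p = 0.9). The values of this ratio overlapped between the groups, which follows from the 2.81-fold difference between the group means of both genes. *Gnb1* is used in many cell types, so the ratio is not one of rods alone. *Sag* to *Gnat1* was 0.522, 0.477 and 0.563 in WT and 0.551, 0.582 and 0.593 in cKO libraries, with overlapping groups and a difference of 0.15 (exact permutation test, p = 0.2). *Gngt1* to *Gnb1* ranged more widely, at 0.178, 0.108 and 0.0763 in WT and 0.164, 0.129 and 0.0662 in cKO libraries, and in both groups replicate 1 was the highest and replicate 3 the lowest. The difference between the groups was -0.03 (exact permutation test, p = 1).

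Within PDE6, *Pde6a* to *Pde6b* was 0.322, 0.500 and 0.467 in WT and 0.347, 0.236 and 0.369 in cKO libraries, a difference of -0.45 with overlapping groups (exact permutation test, p = 0.3). *Pde6g* to *Pde6b* was 12.2, 10.3 and 10.4 in WT and 10.3, 6.82 and 8.34 in cKO libraries, a difference of -0.38 (exact permutation test, p = 0.2). Both ratios have *Pde6b* below the line, the gene with the largest fold change of the 9. *Cnga1* to *Cngb1* lay between 0.0951 and 0.258 in WT and between 0.109 and 0.319 in cKO libraries (difference 0.37). Of the 8 ratios within the cascade 0 separated the groups, where a ratio of 1 of the 9 genes to any other gene tested separated them in 58.4% of cases. Both values largely follow from the fold changes given above, which were alike among the 9 genes and above those of most genes tested. They are therefore no separate result, and overlap at 3 libraries per group does not show that proportions were kept. Within same-numbered pairs, *Sag* to *Gnat1* was higher in cKO in 3 of 3 pairs and *Pde6g* to *Pde6b* was lower in 3 of 3 (exact sign-flip permutation test, p = 0.25 for each, the smallest that 3 pairs allow). Adjusted over the 17 ratios computed, the smallest p of the exact permutation tests was 0.638.

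**Figure D2:**
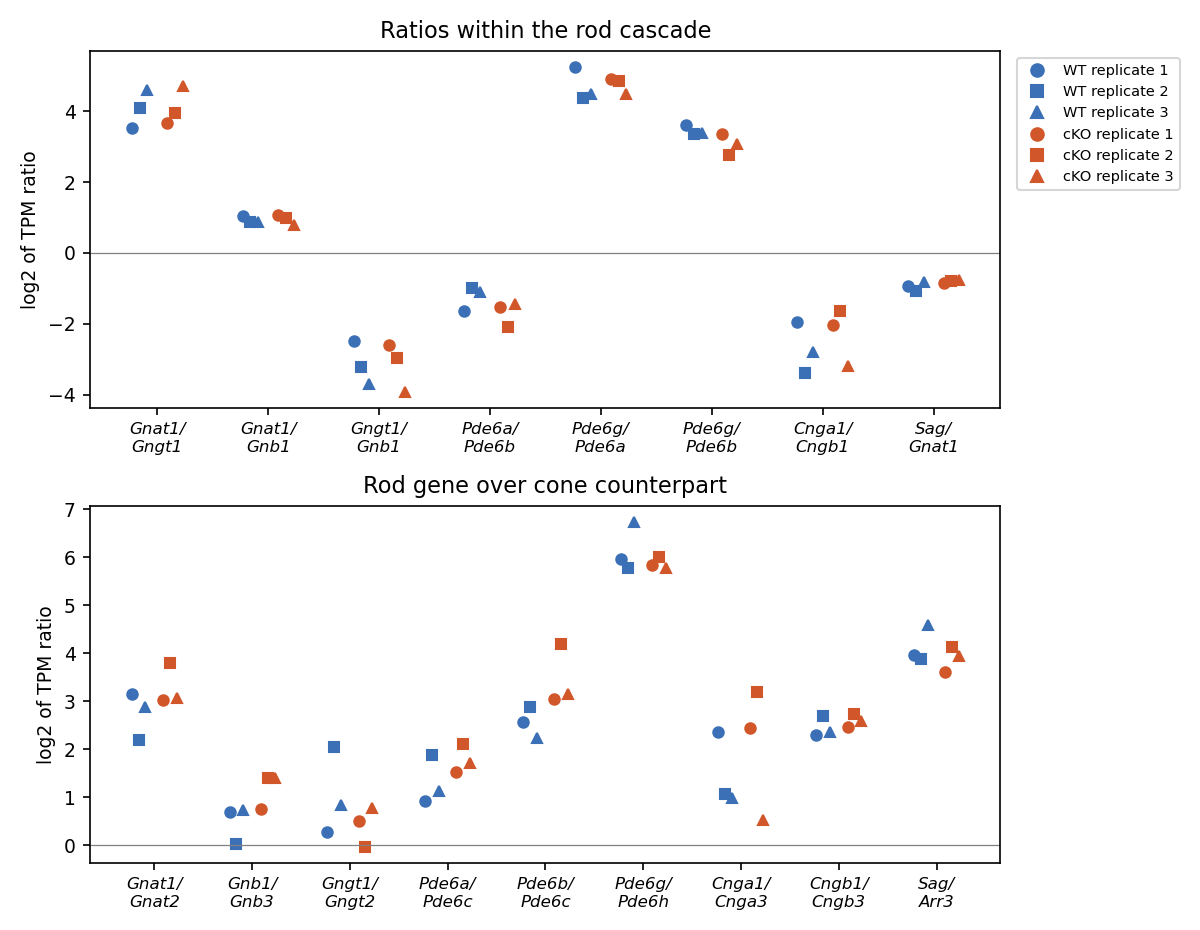
The log2 of the TPM ratio within each library for 8 pairs of rod cascade genes (top) and for 9 rod genes over their cone counterparts (bottom), in WT (blue) and cKO (orange) libraries, with the replicate number as the marker shape and a grey line where both genes have equal TPM. No pair in the top panel separates the groups, and in the bottom panel *Gnb1*/*Gnb3* and *Pde6b*/*Pde6c* do.

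The genes that end the light response and restore the dark state lay in the same direction as the cascade. Of 11 such genes, all 11 were higher in cKO libraries and 10 had a p under 0.05 before adjustment, none after (limma, adjusted p from 0.124 to 0.399), with a median log2 fold change of 1.31. The groups did not overlap in 10 of them, beside 18.7% of all genes separated upward and 11.9% higher at an unadjusted p under 0.05. The largest change was that of *Pdc*, phosducin, which binds transducin beta and gamma subunits. *Pdc* stood at 192, 160 and 274 TPM in WT and at 840, 1280 and 797 in cKO libraries. The means, 209 ± 58.9 and 972 ± 267 TPM (SD, n = 3 each), differed 4.66-fold, with a log2 fold change of 2.22 (SE 0.30, adjusted p = 0.124 from limma), which was above that of any of the 9 cascade genes.

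The GTPase-accelerating complex that switches transducin off was represented by *Rgs9*, its anchor *Rgs9bp* and its partner *Gnb5*, with log2 fold changes of 1.32, 1.42 and 0.87. *Gnb5*, which is also used in other neurons, had little spread, at 152, 178 and 174 TPM in WT and 289, 313 and 321 in cKO libraries. The opsin kinase *Grk1* stood at 8.56, 13.0 and 13.4 TPM in WT and 16.6, 32.6 and 35.6 in cKO libraries, a log2 fold change of 1.16. Recoverin (*Rcvrn*), the calcium sensor that restrains this kinase, stood at 409, 259.7 and 370.3 TPM in WT and 621, 1111 and 829 in cKO libraries, a log2 fold change of 1.29. The groups of all 5 genes did not overlap.

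Calcium feedback on cGMP runs through guanylate cyclases and their activators. The activators *Guca1a* and *Guca1b* had log2 fold changes of 1.42 and 1.31, the cyclase *Gucy2e* 1.35 and the rod exchanger *Slc24a1*, which removes calcium, 1.28. The second cyclase *Gucy2f* was the exception among the 11. It stood at 4.32, 7.36 and 9.17 TPM in WT and at 7.61, 12.5 and 12.8 in cKO libraries, so that cKO replicate 1 lay inside the WT range (log2 fold change 0.61, SE 0.36, adjusted p = 0.399 from limma; exact permutation test, p = 0.2).

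**Figure D3:**
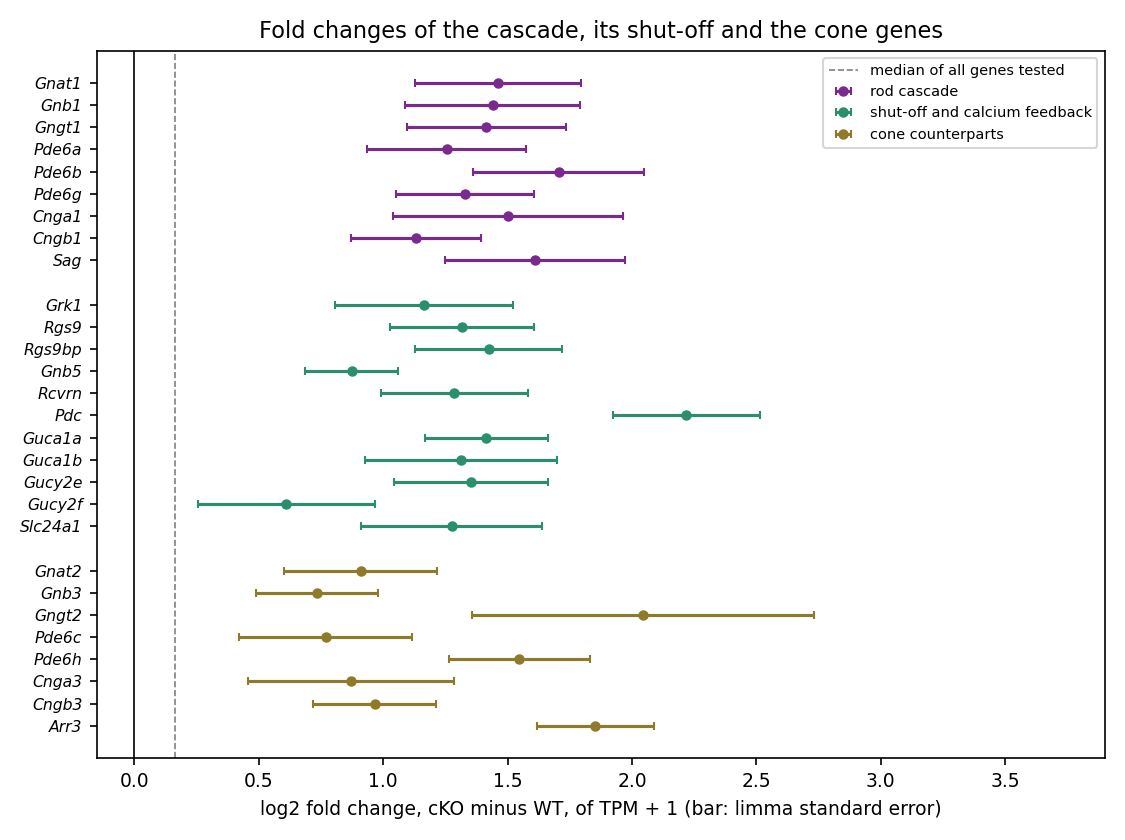
Log2 fold change of TPM + 1, cKO minus WT, for the 9 rod cascade genes (purple), 11 shut-off and calcium feedback genes (green) and 8 cone counterparts (ochre), with limma's standard error as the bar, 0 as the solid line and the median of all genes tested (0.16) as the dashed line. All 28 points lie to the right of both lines, *Pdc* and *Gngt2* are the farthest to the right, and *Gngt2* has the longest bar.

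Cones carry their own copy of each rod part, and the 8 cone counterparts were also higher in cKO libraries, with a median log2 fold change of 0.94. The groups did not overlap in 6 of them, and 6 had a p under 0.05 before adjustment but none after (limma, adjusted p from 0.124 to 0.310), beside the same 18.7% and 11.9% of all genes. The count of 6 at an unadjusted p ran from 4 (without WT replicate 1, cKO replicate 2 or cKO replicate 3) to 8 (with the replicate block). Cone arrestin *Arr3* stood at 105, 81.1 and 87.9 TPM in WT and at 263, 341 and 404 in cKO libraries (log2 fold change 1.85, SE 0.24, adjusted p = 0.124 from limma). The cone transducin alpha subunit *Gnat2* had a log2 fold change of 0.91, the cone beta subunit *Gnb3* 0.73 and the channel subunit *Cngb3* 0.97. The cone gamma subunit *Gngt2* was scattered, at 224, 35.5 and 88.1 TPM in WT and 325, 674 and 232 in cKO libraries. The cone channel subunit *Cnga3* (0.87) and the cone catalytic subunit *Pde6c* (0.77) had overlapping groups.

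Whether rod and cone genes shifted by the same amount was asked of 9 rod to cone ratios, and 2 of them separated the groups. A ratio of 1 of the 9 rod genes to any other gene tested did so in 58.4% of cases. *Pde6b* to *Pde6c* was 5.89, 7.36 and 4.67 in WT and 8.26, 18.3 and 8.85 in cKO libraries, a difference of 0.94 (exact permutation test, p = 0.1). *Gnb1* to *Gnb3* was 1.61, 1.02 and 1.65 in WT and 1.69, 2.64 and 2.64 in cKO libraries, a difference of 0.71 (exact permutation test, p = 0.1), although WT replicate 3 and cKO replicate 1 were close. *Gnb3* is also used by bipolar cells, so this ratio does not set rods against cones alone. The other 7 ratios overlapped between the groups, with differences of 0.55 for *Gnat1* to *Gnat2*, 0.63 for *Cnga1* to *Cnga3*, 0.49 for *Pde6a* to *Pde6c* and 0.17 for *Cngb1* to *Cngb3*. Those of *Gngt1* to *Gngt2* (-0.63), *Sag* to *Arr3* (-0.24) and *Pde6g* to *Pde6h* (-0.22) had the other sign. Several of these rest on single libraries: *Pde6g* to *Pde6h* was 0.06 without WT replicate 3, *Sag* to *Arr3* was -0.02 without the same library, *Gngt1* to *Gngt2* was -0.14 without WT replicate 2, and *Cnga1* to *Cnga3* lay between 0.07 (without cKO replicate 2) and 1.35 (without cKO replicate 3). None passed adjustment over the 17 ratios (0.638).

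Markers of other retinal cells differed between the groups as well. Their directions stand beside 61.1% of all genes tested with a log2 fold change above 0. All 7 rod markers were higher in cKO libraries (median log2 fold change 1.10), as were 6 of 6 cone markers, which summed to between 1775 and 2414 TPM in WT and between 3192 and 5893 in cKO libraries. All 8 bipolar markers were higher too, but with a median of 0.38 and overlapping sums of 962 to 1330 TPM and 1235 to 2015, and *Vsx1* and *Grm6* took the other sign under median-of-ratios scaling. The amacrine list, with 6 of its 7 tested genes higher and *Slc18a3* listed at 0 in some libraries, summed to between 222 and 430 TPM in WT and between 569 and 1216 in cKO libraries. Its sum rests on *Slc6a9*, a glycine transporter gene: without it the list stood at 178, 177 and 139 TPM in WT and at 692, 347 and 120.0 in cKO libraries, so that cKO replicate 3 was the lowest of all. The RGC list went both ways, with 6 of its 9 tested genes higher by log2 fold change and 3 lower (*Rbpms*, *Sncg* and *Pou4f1*). Of the 6, *Nefm* (0.02) and *Nefh* (0.11) had a lower mean TPM in cKO libraries, and both fell below 0 with a library left out. Every cKO library lay above every WT library in 3 of the 9: *Thy1*, *Tubb3* and *Stmn2*. The same held for 6 rod, 5 cone, 2 bipolar and 2 amacrine markers, and for 18.7% of all genes tested. The reverse held for 5 T cell, 2 myeloid and 1 endothelial markers, and for 7.18% of all genes tested. Without *Thy1* the sum of the RGC list overlapped too, at 37.3, 56.1 and 24.5 TPM in WT and at 51.4, 48.2 and 48.9 in cKO libraries. Against these, the 7 markers of Mueller glia had log2 fold changes below 0 (median -0.44), of which *Dkk3* (-0.05) and *Slc1a3* (-0.29) turned positive with a library left out, with overlapping sums of 8978 to 18036 TPM and 7461 to 17194. Of 8 T cell markers 7 were lower, with sums between 341 and 888 TPM in WT and between 167 and 283 in cKO libraries, and of 7 myeloid markers 6 were lower (*P2ry12*, the other one, took the lower sign after that scaling), with sums between 1319 and 1829 TPM and between 498 and 665. *Thy1* stands in both the RGC and the T cell list. The sums of 6 endothelial markers overlapped, at 299 to 663 TPM and 247 to 673. The part of these cell types in the difference of the 9 rod genes was not tested.

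**Figure D4:**
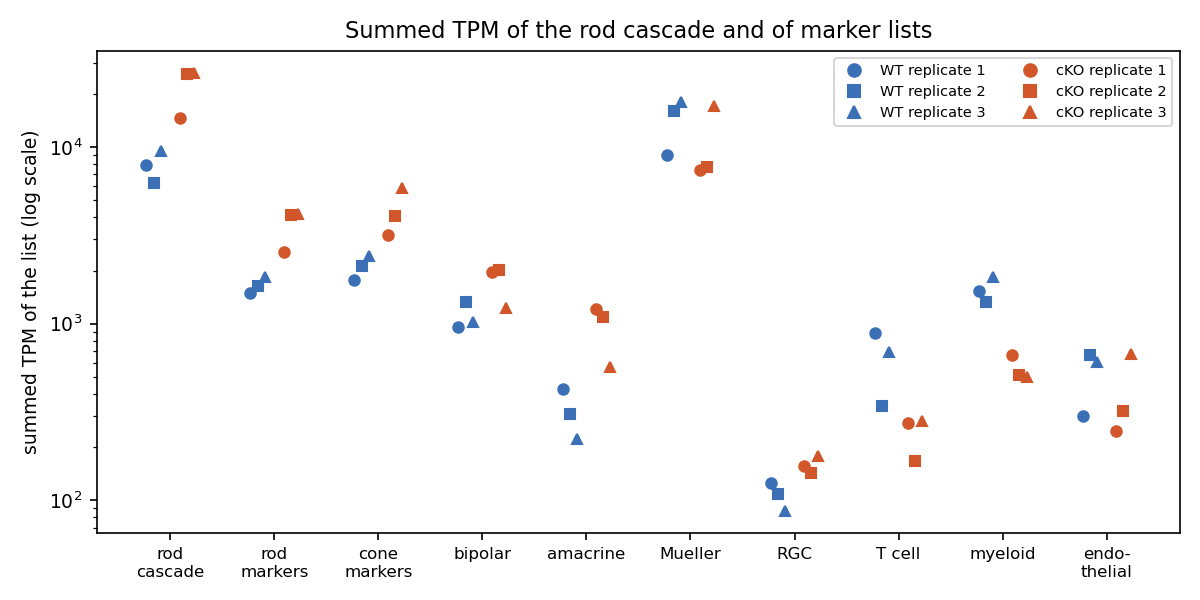
Summed TPM (log axis) of the 9 rod cascade genes and of 9 marker lists in each WT (blue) and cKO (orange) library, with the replicate number as the marker shape. The rod cascade, rod, cone, amacrine and RGC sums are higher in every cKO library (amacrine and RGC sums overlap without *Slc6a9* and *Thy1*), the T cell and myeloid lists are lower in every one, and the bipolar, Mueller and endothelial lists overlap.

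Over the 6 libraries the 9 genes moved closely together. Pearson's r of each gene with the mean of the other 8, on log2(TPM + 1), ran from 0.836 for *Cnga1* and 0.874 for *Gngt1* to 0.994 for *Pde6b* and 0.996 for *Pde6g*. These are descriptions over 6 points that share the split between the groups, and 4.20% of the 12649 genes with a mean TPM of at least 5 outside all lists reached an r of at least 0.9 with the mean of the 9. The highest were *Fabp12*, a fatty acid binding protein gene (r = 0.995), and *Kmt2a*, a histone methyltransferase gene (r = 0.995), then *Aipl1*, the chaperone needed to assemble PDE6 (0.993), *Dpf3*, a BAF complex subunit gene (0.991), *Prom1*, a gene of outer segment discs (0.991), and *Lrit2* (0.991). *Gm47543* (0.990), *Elovl4*, which makes very long chain fatty acids (0.988), *Vopp1* (0.988) and *Gm42555* (0.987) completed the 10 nearest. *Aipl1* stood at 41.5, 39.7 and 46.3 TPM in WT and at 74.1, 131 and 117 in cKO libraries, and *Kmt2a*, with a smaller log2 fold change of 0.67, at 12.4, 10.7 and 12.9 TPM and at 16.7, 23.5 and 19.5.

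In the ATAC-seq data the ends of the rod genes were largely without peaks. The authors called peaks in each library on GRCm38, and a gene was said to have a peak at an end when one lay within 1000 bp of either end of the gene, because the gene table used gives no strand. Of the 9 genes, 1 had such a peak in WT replicate 1, 1 in WT replicate 2, 2 in cKO replicate 1 and 1 in cKO replicate 2. Of all genes tested that have a position, 65.1% and 58.2% had one in the WT libraries and 13.6% and 13.9% in the cKO libraries. Among the 5367 genes with a mean TPM at least that of the lowest rod gene, the shares were 75.4%, 68.5%, 14.5% and 14.3%. Peaks at gene ends were thus fewer at the rod genes than at most genes of this level in WT libraries, and few in general in cKO libraries.

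The peaks at an end fell on different genes in different libraries. WT replicate 1 had one at *Pde6g* (chr11:120447510-120447903) and WT replicate 2 one at *Cnga1* (chr5:72642846-72643490). In cKO replicate 1 they lay at *Gnb1* (chr4:155559967-155560174) and at the other end of *Cnga1* (chr5:72603249-72603603), and in cKO replicate 2 at *Gnat1* (chr9:107674856-107675393). No gene had a peak at the same end in more than 1 library. *Gngt1* (chr6:3989082-3997436) had no peak in any library, inside the gene or near it. Counting peaks in the gene bodies and within 1000 bp of their ends, the 9 genes held 9, 7, 15 and 20 peaks in WT replicates 1 and 2 and cKO replicates 1 and 2, of 76522, 42265, 55902 and 68317 in all. *Pde6a*, with 14, and *Cngb1*, with 11, held the most, and both are among the longest genes of the 9. *Gnb1*, at 67970 bp slightly longer than *Cngb1* at 67543 bp, held 4. Of the 14 in *Pde6a*, 8 were in cKO replicate 2. Few of the peaks in the rod genes recurred: 1 of the 9 in WT replicate 1 was shared with the 7 in WT replicate 2, and 1 of the 15 in cKO replicate 1 with the 20 in cKO replicate 2. Between the groups, WT replicate 1 shared 1 with cKO replicate 1 and 0 with cKO replicate 2. WT replicate 2 shared 0 with cKO replicate 1 and 1 with cKO replicate 2. The share that recurs among all peaks was not computed, so low recurrence cannot be read as a trait of the rod genes.

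**Figure D5:**
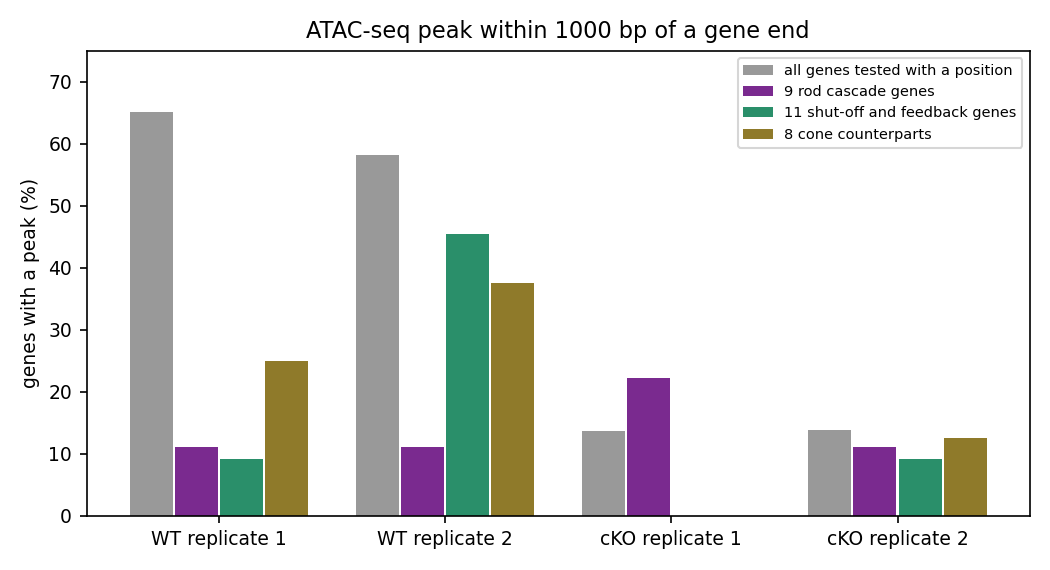
Share of genes (%) with an ATAC-seq peak within 1000 bp of an end in each library, for all genes tested with a position (grey), the 9 rod cascade genes (purple), 11 shut-off and feedback genes (green) and 8 cone counterparts (ochre). The grey bars stand at 65.1% and 58.2% in the WT and at 13.6% and 13.9% in the cKO libraries, and the purple bars stand for 1, 1, 2 and 1 genes.

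The authors also compared 16600 regions between the groups and gave each group's mean of normalized reads on the log2 scale, with no value per library, so no test was made. None of the 9 rod genes had a compared region within 1000 bp of an end (0 of 9), where 51.5% of all genes with a position did. The gene ends are those of the outermost transcripts, however, and the start site that RefSeq gives for *Sag* lies inside the gene. There a region was compared, chr1:87803429-87804298, from 251 bases before to 618 bases after the start site. It held a mean of 26.5 normalized reads (log2 4.73) in WT and 5.62 (log2 2.49) in cKO, a log2 difference of -2.24. A peak overlapped it in both WT libraries and in neither cKO library. Over all compared regions the median difference was -1.57 and 59.8% had a difference of -1 or less, and 35.3% of regions lay at or below the *Sag* value. The RNA of *Sag* was 3.10-fold higher in the same comparison.

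A second region in *Sag*, chr1:87833550-87834223, went the other way, with a log2 value of 1.40 in WT and 3.29 in cKO and with peaks in both cKO libraries only. *Pde6a* held 2 regions inside the gene, with log2 values of 3.76 in WT and 3.45 in cKO for one and of 2.65 and 3.57 for the other. Counted at RefSeq start sites, which the promoter table gives for 6 of the 9 genes, 1 of 6 had a peak in WT replicate 1 (*Sag*), 2 in WT replicate 2 (*Sag* and *Cnga1*) and 0 in either cKO library. Among the tested genes with a start site there, 71.7% and 65.2% had one in the WT and 9.4% and 9.1% in the cKO libraries, and 58.3% had a compared region there.

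Peaks at the ends of the shut-off and cone genes were counted in the same way. Of the 11 shut-off and feedback genes, 1, 5, 0 and 1 had a peak at an end in WT replicates 1 and 2 and cKO replicates 1 and 2, and of the 8 cone counterparts 2, 3, 0 and 1, beside 65.1%, 58.2%, 13.6% and 13.9% of all genes. With so few genes, several of these counts are near the shares of all genes. *Rgs9bp* had the one compared region at an end among the former, with a log2 value of 5.95 in WT and 2.78 in cKO. At the cone genes *Gnat2* and *Gnb3* the values were 4.58 and 3.02, and 4.82 and 3.24, and at *Cngb3* (chr4:19510901-19511390) they were close together, at 2.65 and 2.48.

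The promoters of 4 rod genes are printed because the peaks or the absence of peaks concern them: *Sag* and *Cnga1*, which had a start-site peak in WT, *Cngb1*, which had none, and *Gnb1*, the broadly used gene that also had none. Each is RefSeq's window from 250 bases before to 50 after the start site on GRCm38.p6, 5′ to 3′ on the gene's strand. The 3 short motifs below were searched on both strands and are in capitals: TAATCC, the core bound by the photoreceptor factor CRX (GGATTA on the other strand), TGCTGA, part of the element bound by the rod factor NRL, and GGGCGG, the GC box (CCGCCC on the other strand). The windows are chr1:87803430-87803729 (plus strand) for *Sag*, chr5:72642703-72643002 (minus strand) for *Cnga1*, chr8:95306536-95306835 (minus strand) for *Cngb1* and chr4:155491111-155491410 (plus strand) for *Gnb1*.
Sag: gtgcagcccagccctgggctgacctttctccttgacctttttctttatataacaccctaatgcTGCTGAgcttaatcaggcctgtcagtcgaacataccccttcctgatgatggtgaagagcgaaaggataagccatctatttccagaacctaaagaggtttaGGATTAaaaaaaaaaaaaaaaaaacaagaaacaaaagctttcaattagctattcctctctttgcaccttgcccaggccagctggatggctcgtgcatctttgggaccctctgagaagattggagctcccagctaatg
Cnga1: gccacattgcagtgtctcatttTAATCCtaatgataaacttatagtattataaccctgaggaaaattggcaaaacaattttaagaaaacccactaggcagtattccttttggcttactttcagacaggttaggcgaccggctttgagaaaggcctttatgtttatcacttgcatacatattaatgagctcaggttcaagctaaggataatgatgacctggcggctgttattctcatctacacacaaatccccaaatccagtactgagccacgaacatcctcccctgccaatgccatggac
Cngb1: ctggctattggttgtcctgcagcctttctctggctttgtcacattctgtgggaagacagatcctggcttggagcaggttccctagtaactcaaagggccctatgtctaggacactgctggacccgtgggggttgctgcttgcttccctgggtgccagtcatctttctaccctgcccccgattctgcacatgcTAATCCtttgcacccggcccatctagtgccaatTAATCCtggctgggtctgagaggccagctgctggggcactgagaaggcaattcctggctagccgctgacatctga
Gnb1: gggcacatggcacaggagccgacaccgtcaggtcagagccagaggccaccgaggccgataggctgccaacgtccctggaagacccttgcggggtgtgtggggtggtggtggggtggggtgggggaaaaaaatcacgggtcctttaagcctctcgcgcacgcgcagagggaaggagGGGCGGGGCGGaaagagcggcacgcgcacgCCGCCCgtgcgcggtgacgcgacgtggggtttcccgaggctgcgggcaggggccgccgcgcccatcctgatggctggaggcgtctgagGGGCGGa

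TAATCC was found in 7.06% of all 32851 promoter windows, TGCTGA in 19.5% and GGGCGG in 35.7%, on either strand. In the 15005 windows of genes tested by RNA-seq the shares were 6.04%, 16.3% and 58.4%. Of the 6 rod genes with a window, 4 held TAATCC: *Sag*, *Cnga1*, *Gngt1* and *Cngb1*, the last with 2 copies that begin at -58 and -25. Among the related genes with a window, it was found in 4 of 8 shut-off and feedback genes and 1 of 4 cone counterparts. Of the rod markers with a window, 0 of 5 held it. At a share of 6.04%, so few genes cannot show whether it marks rod genes in general. The copy in *Sag* begins at -87 and lies with the TGCTGA at -187 inside the compared region, and the copy in *Cnga1*, at -228, lies inside the peak of WT replicate 2, which runs from -738 to -94, counted from the start site. *Pde6b* held a TGCTGA at -8 and no TAATCC. *Gnb1* held neither and had 4 GC boxes, in a window with 70.3% G and C, against 41.3% in *Cnga1*, 44.7% in *Sag* and a median of 52.7% over all windows. A match of letters describes the window and does not show that a factor was bound there. *Gnat1*, *Pde6a* and *Pde6g* had no window in the promoter table used.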

How the data were processed

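Groups were taken from the sample labels. The authors trimmed RNA-seq reads (Trimmomatic), quantified transcripts with Salmon 1.0.0 on GENCODE, summed them with tximport, and deposited TPM per gene and library. ATAC-seq reads were aligned by the authors with Bowtie2 2.3.5.1. MACS2 2.2.5 is named in the submitters' processing notes, and the deposited peak lists hold positions alone, 1 list per library. The deposited comparison, made by the authors with DiffBind, holds log2 values of mean normalized reads per group. The authors' own fold changes and p-values were not used.

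Here, log2(TPM + 1) was fitted with limma 3.58.1 in R 4.3.3 (group term, empirical Bayes with a trend), adjusted by Benjamini-Hochberg at 0.05. TPM is no count, so no count model was run; a fold on this scale understates low genes. Exact permutation tests are two-sided. The limma fit and the matching of peaks to gene ends were tested on simulated data, and the ratios, permutation tests and motif counts were not. Named genes are the 9 genes, the 11 and 8 related genes, marker list extremes, and the 10 genes with the highest r. The members and lists were chosen with earlier results of these data known. Same-numbered RNA-seq libraries correlated at 0.334, 0.101 and 0.425 in their deviations from group means across genes, each over the limit of 0.1 set for taking the numbers as pairs; WT replicate 1 with cKO replicate 2 stood at 0.193. Alternatives were another pseudocount (0.1), other filters (none, or a mean TPM of 5 or above), median-of-ratios scaling, no trend, a replicate block, each library left out, and other windows around genes. Python 3.11.15, numpy 2.4.6, pandas 2.3.3 and matplotlib 3.10.9 were used.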

Additional observations from a re-analysis of the deposited data

How the results depend on the processing

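For the 9 rod genes and the 19 related genes, the direction and the side of the adjusted threshold stayed as reported under every alternative fitted: a pseudocount of 0.1, no filter, a mean TPM of 5 or above, median-of-ratios scaling, the replicate block, no trend and each library left out. The median log2 fold change of the 9 was 1.27 after scaling, which moved the median of all genes to 0.01, and lay between 1.20 and 1.61 with a library left out. The replicate block changed no call of these genes.

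The count of ratios that separate the groups was 2 of 17, beside 58.4% of the ratios of a rod gene to any other gene tested. With a library left out the count lay between 2 and 6 (6 without WT replicate 1, 5 without WT replicate 2 and 4 without cKO replicate 1). With the replicate block, counting ratios that moved one way in all 3 pairs, it was 6 (*Sag*/*Gnat1*, *Pde6g*/*Pde6b*, *Gnb1*/*Gnb3*, *Pde6a*/*Pde6c*, *Pde6b*/*Pde6c* and *Cngb1*/*Cngb3*), where the smallest sign-flip p is 0.25.

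Counts of rod genes with a peak, in the order WT replicates 1 and 2 and cKO replicates 1 and 2, were 2, 4, 2 and 4 within 3000 bp, 5, 5, 6 and 7 with the gene body included, and 1, 2, 0 and 0 at start sites. Compared regions were found for 1 gene within 3000 bp, 2 with the gene body and 1 at a start site. The shares of all genes were not computed within 3000 bp or with the gene body. The counts of peaks and regions in those windows therefore cannot be read as a trait of the rod genes. The start-site windows, and the gene body for regions, were chosen after seeing the data. A stricter difference of -2 gives no value, as no region lay at an end. No paired analysis was possible because, for ATAC-seq, the compared regions carry 1 value per group. Depth is unknown, and no counting error is given. List sums without *Thy1* or *Slc6a9* were added after seeing the data.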
